A study of Mus musculus with 22 samples.

Results

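S1pr1, S1pr2 and S1pr3 encode the G protein-coupled receptors through which endothelial cells respond to sphingosine 1-phosphate (S1P), and their loci were described here by the accessible chromatin called around them in retinal endothelial cells. A locus was an mm9 window set for each gene, and its members were all ATAC-seq regions with a midpoint inside the window. That each window holds its gene was not checked. The windows were chromosome 3 from 115.25 to 115.60 Mb for S1pr1, chromosome 9 from 20.72 to 20.83 Mb for S1pr2 and chromosome 13 from 51.42 to 51.60 Mb for S1pr3. They held 36 of 49558 gTKO regions and 59 of 57267 control regions on the placed chromosomes, 95 of 106825 in all.

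The cells were sorted from the retinas of C57BL/6 pups at postnatal day 6, although the cell type label also calls them adult. Pups of the gTKO group carried floxed S1pr1 and S1pr2 alleles, a null S1pr3 background (S1pr3-/-) and Rosa26-CreERT2, a tamoxifen-dependent recombinase driven from a broadly active locus. Control pups carried the same floxed alleles and the same S1pr3-/- background without the recombinase. Both groups received 100 µg tamoxifen from postnatal day 1 to 3, so S1pr3 was null in both and the recombinase was the labelled difference. Because the recombinase was not restricted to endothelial cells, the deletion could affect other cells of the pup. Each of the 3 gTKO and 3 control libraries came from the pooled retinas of 4 to 6 pups and from 5000 to 8000 sorted cells.

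ATAC-seq maps DNA that the Tn5 transposase can reach, and the values available were the start and end of each called region. There was 1 list for the 3 libraries of a genotype, so the spread between replicates is not known and differences between genotypes were not tested. Width stood in for signal, since the lists hold no score, and read depth is unknown. The lists differ as a whole, and each locus is read against that: the gTKO list held 0.865 times as many placed regions as the control list and covered 0.771 times as many base pairs. Recombination at the floxed alleles, the endothelial marker genes and the other genes of the S1P pathway were not checked in these lists, because positions of genes in mm9 were not used here. For the same reason a region is given by its position and is not assigned to a promoter, an exon or an intron. At the floxed S1pr1 and S1pr2 loci these lists do not separate deleted DNA from closed chromatin.

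S1P is carried in blood by lipoproteins and albumin and acts on vessels from the plasma side. S1PR1, the main S1P receptor of endothelium, couples to Gi proteins, activates Rac and strengthens junctions between cells, and its loss in mice leaves the developing retinal vessels with excess sprouts. S1PR2 also couples to G12/13 proteins, and S1PR3 couples to Gi, Gq and G12/13 proteins.

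The S1pr1 and S1pr2 loci held many accessible regions and the S1pr3 locus almost none. The S1pr1 window held 25 gTKO regions covering 13.5 kb and 41 control regions covering 20.6 kb. In the S1pr2 window there were 10 gTKO regions covering 7.31 kb and 16 control regions covering 10.7 kb. The S1pr3 window held 1 gTKO region of 154 bp and 2 control regions with 506 bp in all. Per 100 kb of window these are 7.14, 9.09 and 0.556 gTKO regions and 11.7, 14.5 and 1.11 control regions for S1pr1, S1pr2 and S1pr3. When the placed chromosomes were laid out in 7555 windows of 350 kb, the median window held 3 gTKO regions (quartiles 0 and 10) and 3 control regions (quartiles 0 and 11), so the S1pr1 window was above the upper quartile in both lists. For 24013 windows of 110 kb, the length of the S1pr2 window, the median was 1 region in each list with upper quartiles of 3. For 14680 windows of 180 kb it was also 1 in each list with upper quartiles of 5, and the S1pr3 window lay at the median for gTKO regions and just above it for control regions.

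In all 3 windows the gTKO list held fewer regions than the control list. The gTKO over control ratio of region numbers was 0.61 at S1pr1, 0.625 at S1pr2 and 0.5 at S1pr3, against 0.865 over the placed chromosomes. The ratio of covered base pairs was 0.655 at S1pr1, 0.681 at S1pr2 and 0.304 at S1pr3, against 0.771. The S1pr3 ratios rest on 1 gTKO region and 2 control regions and do not allow a comparison of genotypes. With that window widened by its own length on each side, the covered ratio was 0.774. Among equally long windows with at least 10 control regions, the middle 50% of this ratio lay between 0.711 and 0.838 for the S1pr1 length and between 0.666 and 0.814 for the S1pr2 length. The S1pr1 value was therefore below the lower quartile and the S1pr2 value just above it.

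**Figure D1:**
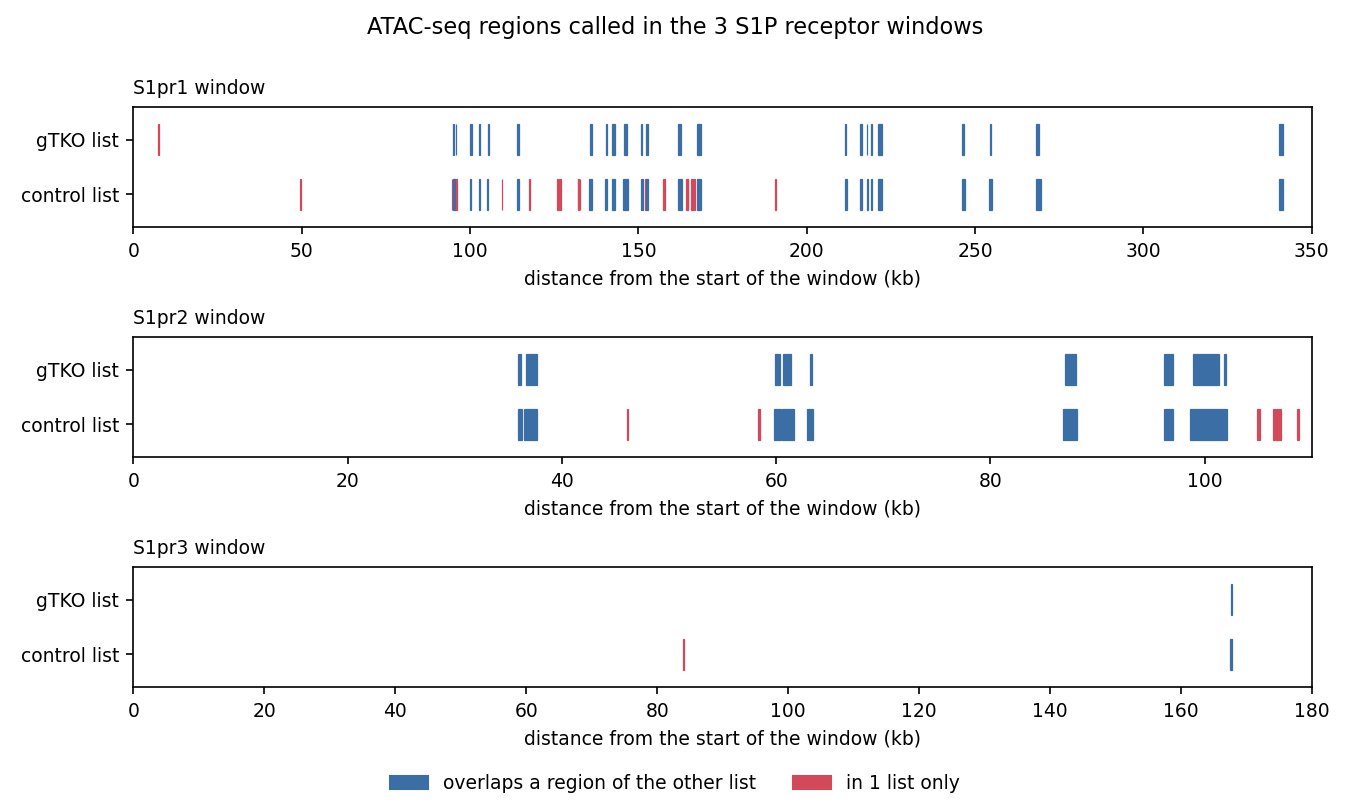
Positions of regions in the gTKO list (upper row of each panel) and the control list (lower row) along the S1pr1, S1pr2 and S1pr3 windows, in kb from the window's start. Blue bars overlap a region of the other list and red bars do not, and the narrowest bars are drawn at a minimum line thickness. The 17 red control bars at S1pr1 and 7 at S1pr2 contrast with 1 red gTKO bar at S1pr1.

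Regions called in a single list were mostly control regions. A gTKO region with no control region overlapping by at least 1 bp was found once at S1pr1 (4.0% of 25, 95% interval 0.101 to 20.4%), against 9.75% of the whole gTKO list. None was found at S1pr2 (0 of 10, upper limit 30.8%) or at S1pr3 (0 of 1). Control regions without a gTKO region numbered 17 of 41 at S1pr1 (41.5%, 95% interval 26.3 to 57.9%), 7 of 16 at S1pr2 (43.8%, 19.8 to 70.1%) and 1 of 2 at S1pr3, against 27.0% of the whole control list. For each single locus the interval includes 27.0%. The 3 loci together had 25 of 59 control-only regions (42.4%, 95% interval 29.6 to 55.9%), 17 of them at S1pr1. The pooled interval is no test against 27.0%, because many of these regions are neighbours and the loci were chosen with earlier results known. Among equally long windows with at least 10 control regions, the upper quartile of the control-only share was 33.3% for the S1pr1 length and 36.4% for the S1pr2 length, and both loci were above it. Intervals are exact Clopper-Pearson intervals that cover counting error only and take regions as independent, which neighbouring regions are not.

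**Figure D2:**
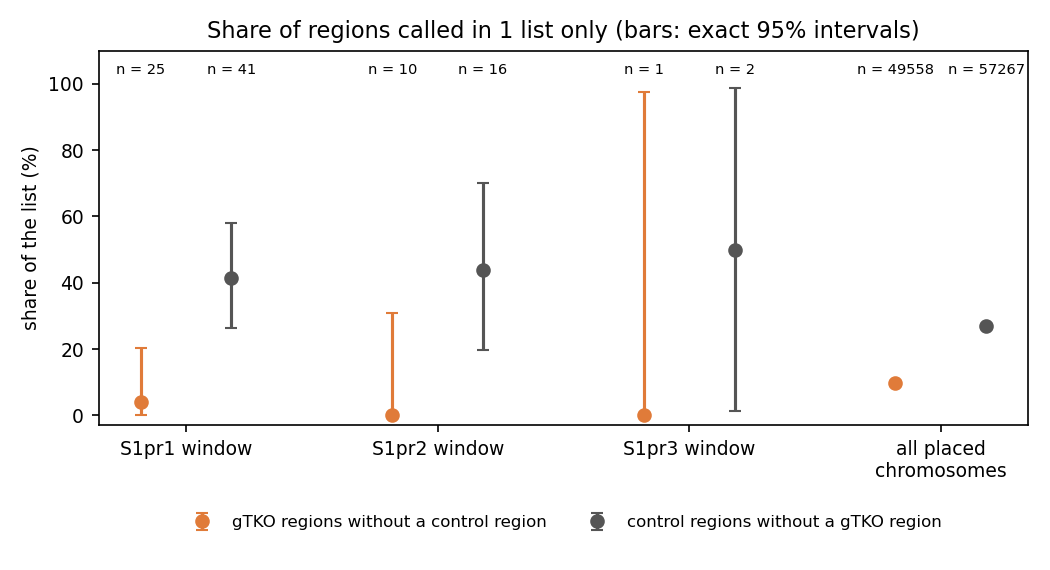
Share of gTKO regions without a control region (orange) and of control regions without a gTKO region (grey) in each window and over all placed chromosomes, in percent, with exact 95% intervals and the number of regions above. The control-only shares of 41.5% at S1pr1 and 43.8% at S1pr2 lie above the 27.0% of the whole list, with wide intervals that include it.

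At the S1pr1 locus, as in the whole control list, the share of regions missing from the gTKO list was lower in the wider classes. Of the control regions of at least 1000 bp, 0 of 6 lacked a gTKO region, against 0.469% of this width class on the placed chromosomes. From 500 to 999 bp 1 of 8 had none, against 3.65%. Of those from 300 to 499 bp, 4 of 9 had none, against 19.1%. From 150 to 199 bp 7 of 8 had none, against 66.4%, and from 200 to 299 bp 5 of 10, against 38.5%. Taking every control region of at least 300 bp, 5 of 23 lacked a gTKO region at S1pr1 and 1 of 10 at S1pr2, against 8.02% of such regions in the whole list. In the RefSeq gene order S1pr1 lies between the protein-coding genes Olfm3, which encodes a secreted olfactomedin protein, and Dph5, an enzyme of diphthamide synthesis.

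The shared regions of at least 1 kb marked 6 positions along the S1pr1 window. The widest control region, from 115518012 to 115519659, measured 1052 bp in the gTKO list and 1648 bp in the control list. The region with its control edges at 115395377 and 115396821 measured 911 bp in the gTKO list and 1445 bp in the control list. In both, the gTKO region lay inside the control region. The third in width, from 115417298 to 115418616 in the control list, measured 1096 bp in the gTKO list and 1319 bp in the control list, and its left edge lay 203 bp further in. From 115471185 to 115472435 the control region of 1251 bp held a gTKO region of 1139 bp, the widest gTKO region of the window. The remaining control regions of at least 1 kb differed from their gTKO partners by unequal amounts. The region from 115590375 to 115591571 measured 1128 bp in the gTKO list and 1197 bp in the control list. The region from 115411682 to 115412873 measured 835 bp in the gTKO list and 1192 bp in the control list. Among the next in width, the region from 115392266 to 115393100 was nearly as wide in both, at 802 bp in the gTKO list and 835 bp in the control list. The eighth widest gTKO region, 595 bp from 115496255 to 115496849, also had a control partner of similar width, 639 bp.

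The 17 control-only regions of the S1pr1 window lay toward its left and centre. In steps of 50 kb from the window's start the gTKO list held 1, 2, 8, 4, 7, 2 and 1 regions, and the control list held 1, 4, 15, 11, 7, 2 and 1. The numbers thus differed between 50 and 200 kb and were equal in the other steps. Control-only regions numbered 1, 2, 7, 7, 0, 0 and 0 in the same steps. The only gTKO-only region of the 3 loci, 218 bp from 115257236 to 115257453, lay in the first step, 42122 bp from the only control region there, which was control-only.

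A stretch of 4 neighbouring control regions without a gTKO region lay directly left of the shared region at 115417298 to 115418616. These regions ran from 115414212 to 115414595 (384 bp), from 115414669 to 115414818 (150 bp), from 115415729 to 115416082 (354 bp) and from 115416543 to 115416692 (150 bp). They covered 1038 bp of a span of 2481 bp. The gTKO list had no region for 4893 bp here, between its regions ending at 115412607 and starting at 115417501, and both of these bordering regions had a control partner. Whether this stretch falls in the floxed part of S1pr1 was not tested, because the floxed segment is not placed in mm9 here.

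A longer stretch of 6 neighbouring control-only regions lay further left. It ran from 115367595 to 115382762, and the gTKO list had no region for 21187 bp around it. Its widest member, from 115376311 to 115376874, was also the widest control-only region of the 3 loci at 564 bp, and it lay 8735 bp from the nearest gTKO region. The others measured 155 bp (from 115367595), 266 bp (from 115375924), 154 bp (from 115382001), 271 bp (from 115382195) and 165 bp (from 115382598). Such stretches were found elsewhere too: the control list held 432 runs of at least 4 neighbouring control-only regions, with 2478 regions or 16.0% of the control-only class, and the gTKO list held 43 runs of gTKO-only regions. Of the control runs 129 had 6 or more members.

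**Figure D3:**
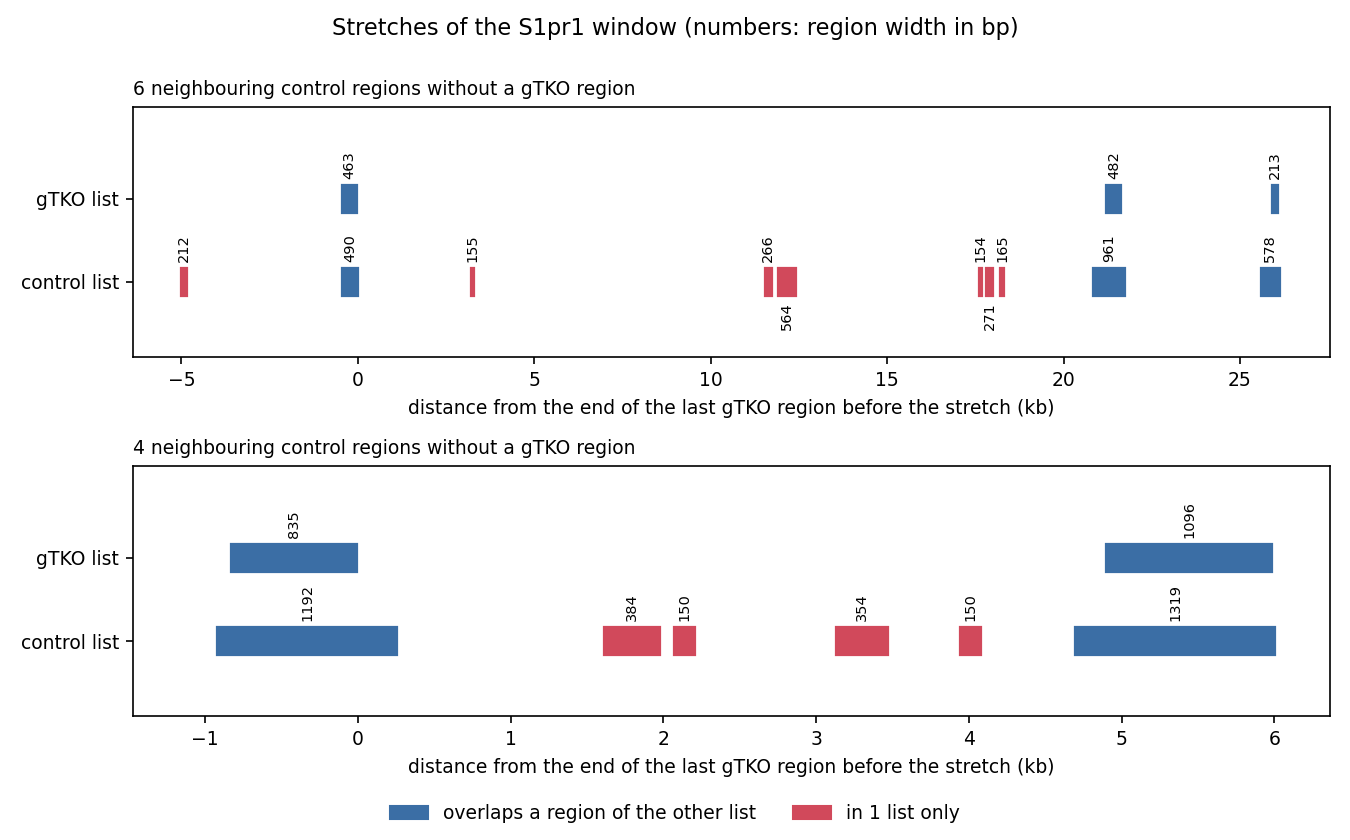
The 2 stretches of the S1pr1 window with 4 or more neighbouring control-only regions, drawn to scale in kb from the end of the last gTKO region before each stretch, with the gTKO list above the control list and each region's width in bp printed beside it. Blue bars are shared and red bars control-only. In the lower panel the shared regions of 835 and 1192 bp on the left and of 1096 and 1319 bp on the right border the 4 control-only regions.

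The remaining 7 control-only regions at S1pr1 stood singly or in a pair. The regions of 212 bp from 115299576 and of 150 bp from 115344474 followed each other with no other control region between them. A region of 289 bp from 115345897 to 115346185 lay only 42 bp from a gTKO region, and a region of 154 bp from 115402074 to 115402227 lay 74 bp from one. These are narrow regions beside a shared one. The region of 212 bp from 115359395, the region of 422 bp from 115407407 to 115407828 and the region of 311 bp from 115440683 to 115440993 lay 3863, 3944 and 20336 bp from the nearest gTKO region.

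Within shared regions, most gTKO regions at S1pr1 were narrower, to about the same degree as elsewhere. All 24 shared regions paired 1 to 1 between the lists. The gTKO region was wider in 6 and the control region in 18 of these pairs (75.0%, 95% interval 53.3 to 90.2%), against 79.5% of all 37878 such pairs on the placed chromosomes. The median width was 441.5 bp in the gTKO list and 516.5 bp in the control list, and the median gTKO over control ratio within pairs was 0.871, against 0.866 for all pairs. The left edge of the gTKO region lay a median of 34 bp inside the control region and the right edge 33 bp inside, so the difference came from both sides. In 16 of the 24 pairs the gTKO region lay wholly within the control region, against 62.7% of all pairs.

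The width difference was past 1.5 times in 7 of the 24 pairs, in both directions. In 5 pairs the gTKO region was at least 1.5 times narrower, against 17.3% of all pairs. Apart from the regions at 115395377 and 115518012 given above, these were the pair from 115389997 to 115390574 in the control list (213 bp in the gTKO list, 578 bp in the control list, ratio 0.369), the pair from 115385237 to 115386197 (482 bp in the gTKO list, 961 bp in the control list, ratio 0.502) and the pair from 115504274 to 115504915 (419 bp in the gTKO list, 642 bp in the control list, ratio 0.653). The first 2 of these are neighbours and lie just right of the stretch of 6 control-only regions. In 2 pairs the gTKO region was at least 1.5 times wider, against 2.55% of all pairs. These were the region from 115349921 to 115350435 in the gTKO list, with 515 bp in the gTKO list and 177 bp in the control list (ratio 2.91), and the region from 115352594 to 115352928, with 335 bp in the gTKO list and 215 bp in the control list (ratio 1.56). The next shared region to the right, from 115355172 to 115355531 in the gTKO list, was also wider there, with 360 bp in the gTKO list and 252 bp in the control list. These 3 neighbouring regions thus had the opposite direction to most of the locus.

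**Figure D4:**
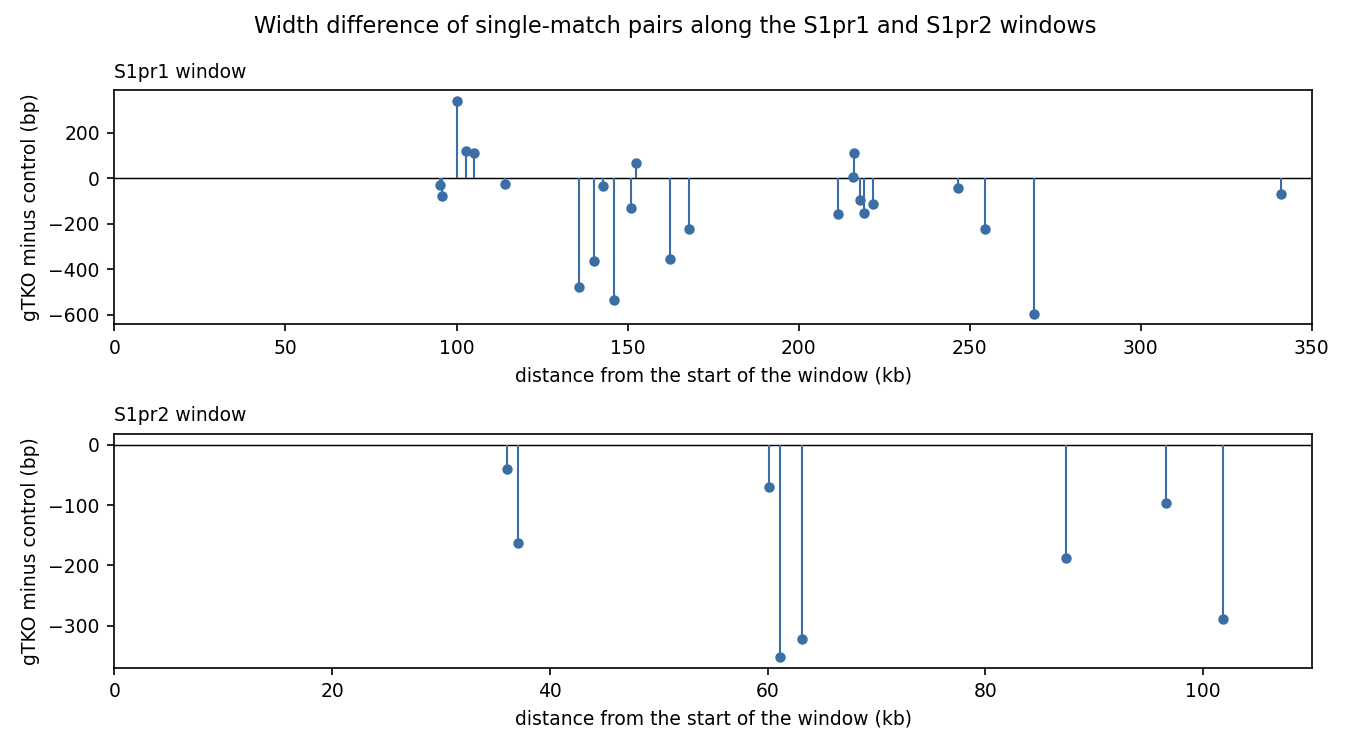
Width in the gTKO list minus width in the control list, in bp, for each single-match pair of the S1pr1 and S1pr2 windows, plotted at its distance in kb from the window's start. Points above 0 are wider in the gTKO list. At S1pr1 18 of 24 points lie below 0 and 3 neighbouring points near 100 kb lie above it, and at S1pr2 all 8 lie below 0.

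The 1 Mb on each side of the S1pr1 window did not show the lower number of gTKO regions. These flanks held 30 gTKO regions, 4 of them gTKO-only, and 26 control regions, 3 of them control-only. The gTKO over control ratio was 0.61 for region numbers and 0.655 for covered base pairs in the window, against 1.15 and 0.851 in the flanks. On the left the nearest region of either list lay 1520 kb beyond the window's border, so these flanking regions all lie on the right. The nearest region outside on that side had 257 bp in the gTKO list and 321 bp in the control list.

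RefSeq start-site sequences of 300 bases (250 before the start and 50 after it, build GRCm38.p6) matched 2 of the 3 genes, S1pr2 and S1pr3, and S1pr1 was not among the matches. Both are shown because they were the only matches. The S1pr2 and S1pr3 loci are the most and the least densely filled with accessible regions of the 3. Their positions are in GRCm38.p6 and cannot be set against the mm9 regions. Capitals mark matches to the motifs TGANTCA (AP-1), TGACGTCA (the cyclic AMP response element, CRE), GGGCGG (GC box) and CCGGAA (ETS), searched on both strands. No matches overlap each other.
S1pr2, chr9:20976744-20977043, minus strand: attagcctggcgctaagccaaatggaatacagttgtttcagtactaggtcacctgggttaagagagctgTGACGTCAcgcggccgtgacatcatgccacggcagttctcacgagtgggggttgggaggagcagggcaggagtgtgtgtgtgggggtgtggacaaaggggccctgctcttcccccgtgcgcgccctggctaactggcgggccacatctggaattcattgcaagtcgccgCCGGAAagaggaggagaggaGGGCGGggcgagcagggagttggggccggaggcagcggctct
S1pr3, chr13:51408368-51408667, plus strand: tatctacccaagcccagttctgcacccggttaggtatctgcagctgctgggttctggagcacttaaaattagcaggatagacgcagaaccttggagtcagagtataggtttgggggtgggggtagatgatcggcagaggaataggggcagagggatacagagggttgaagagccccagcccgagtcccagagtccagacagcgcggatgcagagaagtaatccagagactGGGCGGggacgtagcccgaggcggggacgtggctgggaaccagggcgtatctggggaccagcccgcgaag
The S1pr2 sequence held 1 match to CRE (bases 70 to 77 of the window), 1 to ETS (bases 239 to 244) and 1 to the GC box (bases 259 to 264). The S1pr3 sequence held 1 match, to the GC box (bases 231 to 236), and neither held TGANTCA. Of 32851 mouse start-site windows in the table, 7.81% held TGANTCA, 1.79% TGACGTCA, 35.7% GGGCGG and 14.9% CCGGAA. The S1pr2 start-site sequence held 18 CpG dinucleotides and the S1pr3 sequence 14, against a median of 7 (quartiles 3 and 20). A relation between CpG content and the number of regions called was not tested.

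At the S1pr2 locus all 10 gTKO regions had a control region, and every one was covered by it completely. The gene lies in a crowded stretch: in the RefSeq order it follows Dnmt1, the maintenance DNA methyltransferase, and precedes Mrpl4, which encodes a mitochondrial ribosomal protein, and Icam1 and Icam4, which encode adhesion molecules for leukocytes. Regions of the window may therefore belong to these neighbours. In this window 100.0% of the gTKO base pairs lay in control regions, while 68.1% of the control base pairs lay in gTKO regions, against 92.8% and 71.5% over the placed chromosomes.

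The shared regions lay in 3 groups along the S1pr2 window. In the first, the region from 20756473 to 20757649 in the control list measured 1014 bp in the gTKO list and 1177 bp in the control list, and the smaller one beside it, from 20755914 to 20756241, 287 bp in the gTKO list and 328 bp in the control list. In the second group, 3 neighbouring regions lay between 20779840 and 20783437. The first of them was similar in both lists, with 528 bp in the gTKO list and 598 bp in the control list. The second, from 20780539 to 20781706, measured 816 bp in the gTKO list and 1168 bp in the control list, and its right edge lay 281 bp further in. The last of the 3, from 20782925 to 20783437, had the lowest width ratio of the window's pairs, with 191 bp in the gTKO list and 513 bp in the control list (ratio 0.372).

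The last group held the widest region of the 3 loci. From 20818648 to 20821592 the control list had a single region of 2945 bp. The gTKO list had 2 regions in its place, of 1883 bp from 20818869 to 20820751 and of 559 bp from 20820769 to 20821327, with 2442 bp in all. This was the only region at the 3 loci that spanned 2 or more regions of the other list. On its right, the region from 20821619 to 20822121 measured 215 bp in the gTKO list and 503 bp in the control list (ratio 0.427). On its left, the regions from 20806810 to 20808047 (1050 bp in the gTKO list, 1238 bp in the control list) and from 20816207 to 20817074 (771 bp in the gTKO list, 868 bp in the control list) were closer in width.

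All 8 single-match pairs at S1pr2 were wider in the control list (100.0%, 95% interval 63.1 to 100.0%), against 79.5% of all pairs. The median ratio was 0.855, with a range of 0.372 to 0.888, so no gTKO region reached the width of its control partner. In 2 of the 8 pairs the gTKO region was at least 1.5 times narrower, against 17.3% of all pairs, and in 0 at least 1.5 times wider, against 2.55%. With 8 pairs these counts are near the shares of the whole list.

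The 7 control-only regions at S1pr2 lay mostly beside that last group. Of these, 5 lay right of it, with 199 bp from 20824927, 215 bp from 20826342, 305 bp from 20826677, 162 bp from 20827007 and 160 bp from 20828655. They form a run of 6 neighbouring control-only regions with one that falls outside the window, of 416 bp from 20829906 to 20830321. The gTKO list had no region for 8874 bp around this run. The other control-only regions measured 152 bp (from 20766056 to 20766207) and 209 bp (from 20778265 to 20778473), the second of them 1402 bp from the nearest gTKO region. Whether any of these 7 regions falls in the floxed part of S1pr2 was not tested.

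The flanks of the S1pr2 window had a ratio of covered base pairs close to that of the window itself, but a higher ratio of region numbers. Within 1 Mb on each side there were 104 gTKO regions and 129 control regions. The gTKO over control ratio of region numbers was 0.625 in the window and 0.806 in the flanks. The ratio of covered base pairs was 0.681 in the window and 0.672 in the flanks. It was lower, 0.535, when the window was widened by its own length on each side, so the flank value is an average over unequal parts. The share of control-only regions was 43.8% in the window and 29.5% in the flanks (95% interval 21.8 to 38.1%). This interval takes neighbouring regions as independent, so it is no test of the window against the flanks. Most control-only regions of the window belong to the run at its right border. The nearest regions outside the window's right border lay close to it, with midpoints 0.948 kb away in the gTKO list and 0.113 kb away in the control list. The placement of this border therefore decides some of the members.

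**Figure D5:**
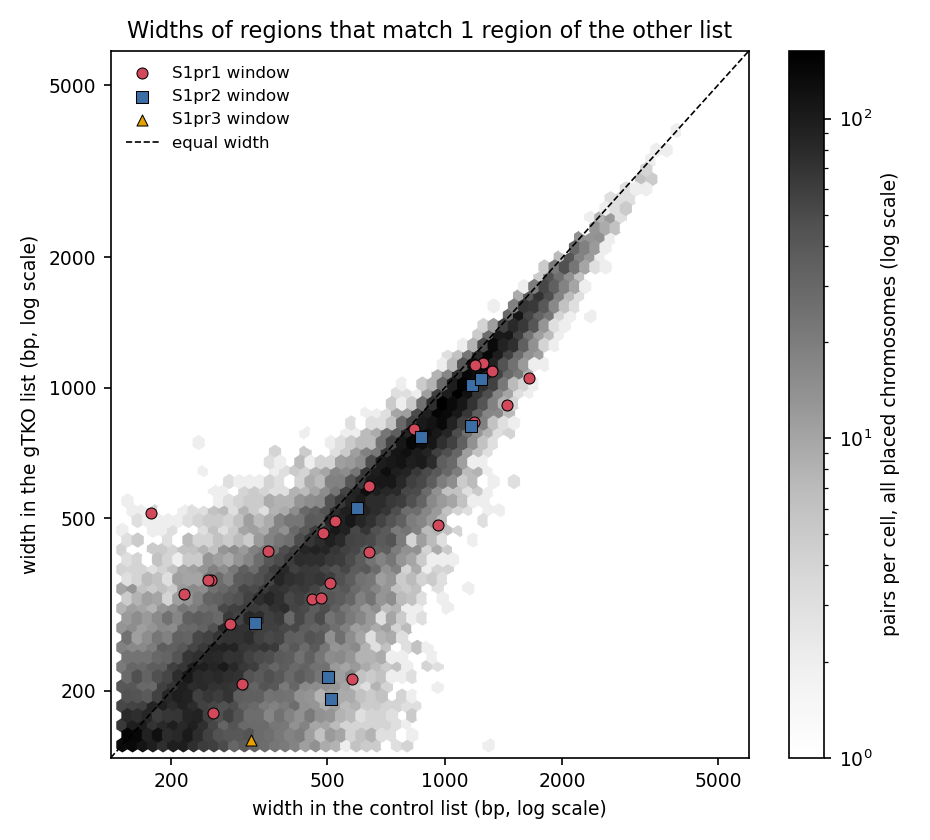
Width in the gTKO list against width in the control list, in bp on log scales, for regions that pair 1 to 1 between the lists. Grey cells count all 37878 pairs on the placed chromosomes, coloured points are the 24 pairs at S1pr1, 8 at S1pr2 and 1 at S1pr3, and the dashed line marks equal width. Most points lie below the line, and the S1pr1 points above it on the left are the regions of 515, 360 and 335 bp and their neighbours in width.

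The S1pr3 locus, null in both genotypes, held 3 regions in all. In the RefSeq order S1pr3 lies between Nxnl2, which encodes a thioredoxin-like protein, and Shc3, which encodes a signalling adaptor. A control region of 186 bp, from 51503904 to 51504089, had no gTKO region within 83532 bp. The only shared region measured 154 bp in the gTKO list (from 51587622 to 51587775) and 320 bp in the control list (from 51587507 to 51587826), with a ratio of 0.481. The gTKO region was close to the smallest width found in either list, 150 bp. With 1 or 2 regions per list, these values do not allow a comparison of genotypes at this locus. The flanks of 1 Mb held 38 gTKO regions and 38 control regions, with a ratio of covered base pairs of 0.893, so the surroundings of the S1pr3 window were filled about equally in both lists.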

How the data were processed

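Per the submitters' processing notes, the build is mm9, with Bowtie2, Picard, MACS2 and bedtools among the tools listed for the series, without their roles. The deposited lists give the start and end of each ATAC-seq peak, 1 list for the 3 libraries of a genotype. The sources used here do not state the calling threshold, the filters or any pooling of reads, and a list from fewer reads can hold fewer and narrower regions.

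Regions on chromosomes 1 to 19, X and Y were used, 49558 in the gTKO list and 57267 in the control list. Sharing required an overlap of 1 bp or more between a gTKO and a control region. Width differences were read in pairs that matched 1 to 1, with 1.5 times as the limit. The overlap procedure was tested on simulated data. Shares have 95% Clopper-Pearson intervals. The receptors, windows and lists were chosen with earlier results of these data known. The flanks of 1 Mb, the runs of neighbouring regions, the steps of 50 kb, the equally long windows and the motifs were chosen after seeing the data. Regions given by position are every region where a list holds at most 10 in a window. In fuller windows they are the 8 widest of each list, every one-list or spanning region and every pair past 1.5 times. The 16 RNA-seq libraries were not analysed here. Values were computed in Python 3.11.15 (pandas 2.3.3, scipy 1.17.1, numpy 2.4.6) and drawn with matplotlib 3.10.9.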

Additional observations from a re-analysis of the deposited data

How the results depend on the processing

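Of 52 values under 5 alternative settings, 35 stayed within 1.5 times of the reported value and 17 moved further. A change of direction, to the other side of 1, was defined only for the ratios and was found in 0 of them. The counts of one-list regions have no direction. An overlap of at least 50% of each region gave 4, 3 and 1 gTKO-only regions at S1pr1, S1pr2 and S1pr3 (reported 1, 0 and 0) and 2 control-only regions at S1pr3 (reported 1). With only regions from 300 bp upwards kept, S1pr1 had 4 gTKO-only and 7 control-only regions (reported 1 and 17), S1pr2 had 4 control-only regions (reported 7), and the covered ratio at S1pr3 was 0. This setting drops partners under 300 bp. Windows widened by their own length on each side gave 3 gTKO-only regions at S1pr1, 1 gTKO-only and 24 control-only regions at S1pr2 and 2 control-only regions at S1pr3, where the covered ratio became 0.774 and the median width ratio 0.802 (reported 0.304 and 0.481). The central 50% of the windows held 0 gTKO-only regions at S1pr1, 2 control-only regions at S1pr2 and a covered ratio of 0 at S1pr3. The control-only count at S1pr1 was 14 to 20 under the other settings. At S1pr3 no width ratio could be given in the central window or from 300 bp. No paired analysis was possible because the 3 libraries of a genotype share 1 list, which also prevents leaving out a replicate. Read depth is unknown, so the limit it sets on these counts cannot be given.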
